A study of Rattus norvegicus and Mus musculus with 17 samples.

Results

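The breakdown of glucose to lactate was followed here through the glucose transporter Slc2a1 and 9 enzyme genes: the hexokinases Hk1 and Hk2, the phosphofructokinases Pfkm and Pfkl, Aldoa, Gapdh, Eno1, Pkm and Ldha. The genes were chosen by name, with earlier results of these data known. Every line of the 3 deposited expression tables that carries 1 of these symbols, in upper or lower case, was taken. They are 10 of the 11532 gene symbols that the tables hold. The Morris hepatoma table (9082 genes) listed 10 of the 10, the mouse tumour table (4649 genes) listed 5 (Hk1, Pfkm, Gapdh, Eno1 and Ldha), and the regenerating liver table (2093 genes) listed 3 (Slc2a1, Hk1 and Pfkm). A table lists only genes whose group means differed at a deposited p-value below 0.05, so for an unlisted gene there is no value in that comparison and nothing can be said of its level there.

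The study compared RNA sequencing of whole liver tissue in 2 liver tumour models and in regenerating liver. Male C57BL/6 mice received the carcinogen diethylnitrosamine (DEN) at 50 mg/kg when 14 days old and, 30 days later, the tumour promoter TCPOBOP at 2 mg/kg, with liver collected either ahead of tumour formation at 5 months of age (n = 3) or once tumours were present at 8 months (n = 3). Both mouse groups therefore carry the same treatment, they differ in age as well as in tumours, and no untreated mouse is among them. In rats, untreated ACI livers (n = 3) were set against Morris hepatoma (n = 4), grown for 2 weeks in 10-week-old ACI rats after MH3924a cells were injected into the liver, and against regenerating liver of rats 10 to 12 weeks old (n = 4), taken 24 hours after partial hepatectomy, the surgical removal of part of the liver. MH3924a is 1 transplanted cell line, so the hepatoma libraries sample 1 tumour line with the host cells around it. The control libraries are the same ones in both rat tables.

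Glycolysis turns glucose into pyruvate in the cytosol and yields ATP without oxygen. Glucose enters through facilitative transporters, is trapped by hexokinase, committed to the pathway by phosphofructokinase, split by aldolase, oxidised by glyceraldehyde-3-phosphate dehydrogenase, and passed through enolase and pyruvate kinase to pyruvate, which lactate dehydrogenase can reduce to lactate. Adult hepatocytes use their own isozymes at several of these steps (among them the transporter Slc2a2 and the liver pyruvate kinase Pklr) and are organised to make glucose as well as to burn it, while many proliferating and tumour cells use Slc2a1, Hk2, Aldoa and Pkm. The headers name no unit, and values were read as RPKM, reads scaled to transcript length and to the number of mapped reads. On that reading, levels of different genes can be set side by side. Differences are given as log2 fold changes of RPKM + 1 with their standard error (SE), a scale that understates changes of genes near or below 1 RPKM, and a change is called where the Benjamini-Hochberg adjusted p of limma's moderated test is under 0.05. Nothing in the labels says whether libraries of a group came from separate animals, so p-values reflect only the library-to-library spread, which may be technical.

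Whole-series facts that touch these genes are few. The listed genes were preselected at an unadjusted p, and of these 94.3% of the 8233 genes tested in the hepatoma comparison, 67.3% of 3684 in the mouse comparison and 22.0% of 1703 in regenerating liver were called in 1 direction or the other. The median log2 fold change over all tested genes was 1.58 in the hepatoma, -0.56 in the mouse comparison and 0.53 in regenerating liver. The hepatoma libraries fell apart in a liver marker: albumin (Alb) was 574 and 19.0 RPKM in hepatoma libraries 1 and 2 but 10943 and 10924 RPKM in libraries 3 and 4, against 48190 to 67213 RPKM in control liver. Control library 3 stood apart from the other controls, with the cytochrome Cyp2e1 at 451 against 3045 and 3687 RPKM and the matrix gene Dcn at 26.6 against 4.20 and 1.04 RPKM. In bulk tissue, fewer cells of a type and less RNA per cell cannot be told apart.

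The promoter windows of the transporter Slc2a1 and of Ldha, the gene of the 10 that did not pass the test in the hepatoma, are shown with that of the hepatocyte transporter Slc2a2, because these genes take different courses in the same libraries. Each window runs from 250 bases before to 50 bases after the transcript start in RefSeq, build GRCr8, on the plus strand: Slc2a1 at chr5:138002272-138002571, Ldha at chr1:106507842-106508141 and Slc2a2 at chr2:113540120-113540419. Capitals mark 3 motifs on either strand: ACGTG (core of the hypoxia response element), CACGTG (the E-box read by Myc and Max, which holds ACGTG) and GGGCGG (the GC box).
Slc2a1: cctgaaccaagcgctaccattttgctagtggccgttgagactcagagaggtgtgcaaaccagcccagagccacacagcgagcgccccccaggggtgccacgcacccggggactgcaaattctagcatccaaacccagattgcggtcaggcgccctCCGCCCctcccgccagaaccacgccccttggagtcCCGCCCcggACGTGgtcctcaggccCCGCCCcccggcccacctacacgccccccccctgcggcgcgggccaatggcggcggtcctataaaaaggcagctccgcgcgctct
Ldha: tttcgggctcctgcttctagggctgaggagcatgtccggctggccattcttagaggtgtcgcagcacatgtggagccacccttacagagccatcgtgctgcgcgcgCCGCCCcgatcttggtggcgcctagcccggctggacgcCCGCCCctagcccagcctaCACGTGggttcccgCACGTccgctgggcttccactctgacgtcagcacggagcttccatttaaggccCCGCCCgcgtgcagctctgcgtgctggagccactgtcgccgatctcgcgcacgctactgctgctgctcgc
Slc2a2: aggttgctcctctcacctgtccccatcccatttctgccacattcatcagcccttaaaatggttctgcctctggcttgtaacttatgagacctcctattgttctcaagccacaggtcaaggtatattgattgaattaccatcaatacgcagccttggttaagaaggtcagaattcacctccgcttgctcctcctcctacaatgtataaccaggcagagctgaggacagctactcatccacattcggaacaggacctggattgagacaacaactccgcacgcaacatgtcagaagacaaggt
The Slc2a1 window holds 1 ACGTG and 3 GGGCGG, the Ldha window 3 ACGTG, of which 2 lie on opposite strands of its 1 CACGTG, and 3 GGGCGG, and the Slc2a2 window none of the 3. RefSeq gave 14 windows for the 10 genes. ACGTG was in 7 of the 14, belonging to 7 genes (Slc2a1, Hk1, Pfkm, Aldoa, Gapdh, Eno1 and Ldha), against 19.3% of the 33469 rat windows, and GGGCGG was in 7 of the 14 against 33.1%. CACGTG was in the Ldha window alone among the 14, against 6.42% of all windows. These windows are richer in G and C (median 62.0%) than rat windows as a whole (51.7%), and the matches are a description of letters, not of binding.

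In Morris hepatoma 9 of the 10 genes were higher than in control liver and none was lower, with Ldha the gene that did not pass. A share of 9 in 10 is close to the 85.5% of all tested genes that were called higher in this table (8.73% were called lower), so the count does not set these genes apart. Their size of change was larger than that of the table at large: the median log2 fold change was 3.88, against 1.58 over all tested genes. This is a description, since the genes were chosen with earlier results of these data known. In all 10 genes the hepatoma and control libraries did not overlap, as in 98.6% of tested genes. Summed over the 10 genes, control libraries held 2113, 2131 and 2543 RPKM and hepatoma libraries 15928, 16844, 12059 and 12737 RPKM.

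Slc2a1 (GeneID 24778), the widely expressed basal glucose transporter, stood at 2.85, 2.95 and 2.20 RPKM in control libraries 1 to 3 and at 234, 176, 165 and 226 RPKM in hepatoma libraries 1 to 4. Each hepatoma library lay far above each control, and the hepatoma libraries with high and low albumin were interleaved. The ratio of the group means was 75.1-fold, and the log2 fold change was 5.77 ± 0.20 (SE, adjusted p = 1.84e-07).

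Both hexokinases, which phosphorylate glucose on entry, rose from below or near 1 RPKM. Hk1 (25058), the housekeeping form, measured 0.600, 0.555 and 1.06 RPKM in control liver and 56.0, 54.7, 34.9 and 38.2 RPKM in hepatoma (log2 fold change 4.74 ± 0.22, adjusted p = 4.6e-07). Hk2 (25059), the insulin-regulated form of muscle and fat, measured 0.212, 0.175 and 0.480 RPKM in control liver and 41.2, 37.3, 24.1 and 27.7 RPKM in hepatoma (4.68 ± 0.21, adjusted p = 4.55e-07). Hepatoma libraries 1 and 2 were the higher ones for both genes, and control library 3 was the highest control for both. Hk1 exceeded Hk2 within each of the 7 libraries, although the ranges of the 2 genes over the hepatoma libraries overlapped.

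Phosphofructokinase subunits rose by less on this scale. Pfkl (25741), the liver-type subunit, went from 7.22, 7.70 and 18.2 RPKM to 133, 106, 80.6 and 104 RPKM (log2 fold change 3.24 ± 0.31, adjusted p = 1.59e-05). Pfkm (65152), the muscle-type subunit, went from 0.581, 0.577 and 0.425 RPKM to 17.9, 12.2, 7.54 and 9.39 RPKM (3.00 ± 0.25, adjusted p = 7.1e-06). Pfkl remained the more abundant of the pair in each of the 7 libraries. Per library, the log2 ratio of Pfkm + 1 to Pfkl + 1 ran from -3.75 to -2.38 in control liver. In hepatoma it ran from -3.34 to -2.82, within the control range. The difference of means, -0.25, turned to 0.81 with 0.1 added in place of 1, since Pfkm is under 1 RPKM in controls. Without an added value the groups did not overlap. Pfkm was then 0.0234 to 0.0804 times the level of Pfkl in controls and 0.0903 to 0.135 times in hepatoma.

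Gapdh, of the oxidation step, was the most abundant of the 10 transcripts in both tissues. Aldoa (24189), the muscle and housekeeping aldolase, stood at 64.8, 62.2 and 157 RPKM in control liver and 2667, 2092, 1572 and 1791 RPKM in hepatoma (log2 fold change 4.52 ± 0.35, adjusted p = 4.38e-06). Gapdh (24383), often used as a reference gene for normalisation, stood at 1270, 1337 and 1296 RPKM in control liver and 8087, 9628, 6813 and 7151 RPKM in hepatoma (2.59 ± 0.23, adjusted p = 1.0e-05). The control libraries of Gapdh lay within a narrow range, including control library 3, whereas for Aldoa control library 3 was more than 1.5 times each of the other controls.

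The last steps gave both the largest and the smallest change. Eno1 (24333), the ubiquitous enolase, rose from 221, 227 and 263 RPKM to 1630, 1621, 1130 and 1085 RPKM (log2 fold change 2.50 ± 0.24, adjusted p = 1.5e-05). Pkm (25630), which encodes the muscle and fetal pyruvate kinases by alternative splicing, rose from 3.86, 4.36 and 17.8 RPKM to 2165, 2304, 1247 and 1407 RPKM, 205-fold between group means (7.77 ± 0.49, adjusted p = 5.04e-06). Control library 3 held the highest control value, and without it the ratio of means was 433-fold and the log2 fold change 8.40. The tables give 1 value per gene, so the M1 and M2 forms of Pkm cannot be told apart here. Ldha (24533), the lactate dehydrogenase subunit that favours lactate production, was already abundant in control liver at 541, 489 and 788 RPKM and measured 896, 814, 985 and 897 RPKM in hepatoma. Its log2 fold change was 0.59 ± 0.23 with an adjusted p of 0.0872. Without control library 3, the highest control, it was 0.80 with an adjusted p of 0.0181.

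**Figure D1:**
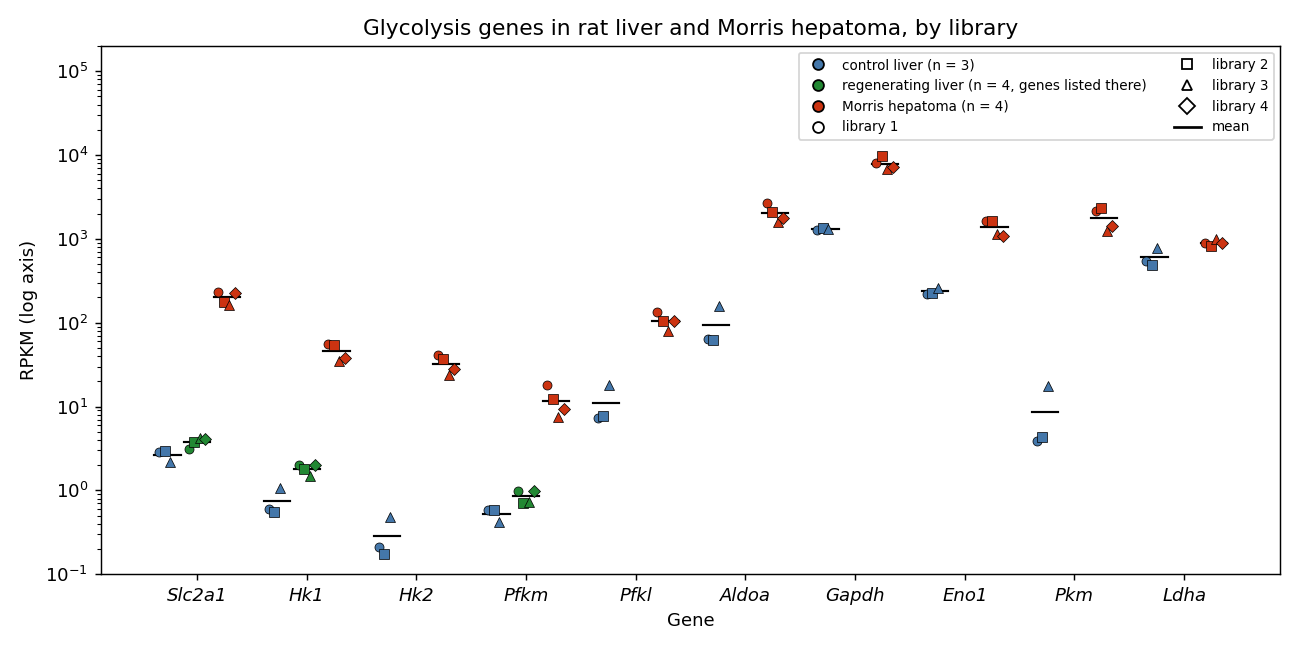
RPKM on a log axis of the 10 glycolysis genes in each rat library: control liver (blue), regenerating liver (green, for the 3 genes listed there) and Morris hepatoma (red), with the library number as the marker shape and the group mean as a line. The hepatoma points lie above the control points for each gene, by the widest gap for Pkm (3.86 to 17.8 against 1247 to 2304 RPKM) and the narrowest for Ldha (489 to 788 against 814 to 985 RPKM).

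The order of levels changed between the tissues. In control liver the mean levels ran Gapdh, Ldha, Eno1, Aldoa, Pfkl, Pkm, Slc2a1, Hk1, Pfkm and Hk2 from high to low, with overlapping ranges between the neighbours Pfkl and Pkm, Hk1 and Pfkm, and Pfkm and Hk2. In hepatoma the order was Gapdh, Aldoa, Pkm, Eno1, Ldha, Slc2a1, Pfkl, Hk1, Hk2 and Pfkm, with overlap between Aldoa and Pkm, Pkm and Eno1, and Hk1 and Hk2. Gapdh led in both, while Ldha, next to it in control liver, came behind Aldoa, Pkm and Eno1 in hepatoma.

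Scaling bears on how these folds are read. RPKM takes each library's own total as its base, and the median of the listed genes rose with most of the table. With the medians of the libraries' listed genes set equal, the 9 called genes kept a higher call, from 0.84 for Eno1 (adjusted p = 0.0259) and 0.93 for Gapdh to 4.11 for Slc2a1 and 6.11 for Pkm, while Ldha turned lower (-1.07, adjusted p = 0.0134). Quantile normalisation also kept the 9 calls and gave -0.12 for Ldha.

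Hepatoma libraries 1 and 2 were both above libraries 3 and 4 in 8 of the 10 genes (not in Slc2a1 or Ldha), against 44.8% of all tested genes, and these are the libraries with little albumin. Left out together, an alternative chosen after the data were seen, libraries 3 and 4 made no difference to the 9 calls, and the log2 fold changes were 5.80 for Slc2a1, 5.03 for Hk1 and 8.15 for Pkm. Control library 3 exceeded each other control by more than 1.5 times in 5 of the 10 genes (Hk1, Hk2, Pfkl, Aldoa and Pkm), against 12.1% of tested genes.

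Most listed markers of cell types other than hepatocytes were higher in the hepatoma. So were 85.5% of all tested genes, whose median log2 fold change was 1.58. All 6 listed of 8 stellate cell and fibroblast markers were higher, their sum going from between 20.1 and 83.7 RPKM in control liver to between 457 and 1149 RPKM in hepatoma, led by Col3a1 (14.3 to 36.6 RPKM in controls, 129 to 390 RPKM in hepatoma) and Col1a1 (0.471 to 2.78 and 135 to 351 RPKM). All 4 listed of 8 endothelial markers were higher (summed 9.27 to 16.7 against 57.0 to 88.7 RPKM). Among them Tek (1.08) lay below the median of all tested genes and Tie1 (1.59) close to it. Of 4 listed of 12 macrophage markers 3 were higher and the Kupffer cell marker Clec4f was lower (summed 132 to 160 against 744 to 1353 RPKM, mostly Lyz2). The 2 listed of 6 T cell markers were higher at low levels (0.298 to 0.581 against 3.20 to 10.0 RPKM summed), with a median log2 fold change of 1.57. Cd3g was without reads in control library 2, and no erythroid or neutrophil marker was listed. Of 9 tested hepatocyte markers Apoa2 alone was called lower, and the sum of the 10 listed ran from 81136 to 113230 RPKM in controls and from 37.5 to 21249 RPKM in hepatoma, with Hnf4a without reads in hepatoma library 2. With library medians set equal, 3 stellate markers (Acta2, Col1a1 and Col1a2), Cdh5 and Lyz2 stayed higher, and Tek, Tie1, Cd163 and Cd2 turned lower in sign. Without hepatoma libraries 3 and 4 all 9 hepatocyte markers were called lower, whereas the Apoa2 call was lost without control library 1 or 2 or hepatoma library 1, that of Clec4f without any 1 control library, and that of Dcn without control library 1 or hepatoma library 1, 3 or 4. Of 5 cholangiocyte markers 1 was listed, Spp1, also made by other cells, which rose from between 0.578 and 1.33 RPKM to between 182 and 265 RPKM (6.84 ± 0.20, adjusted p = 1.3e-07), a call that held under both scalings and without any 1 library. The part of these cells in the glycolysis values was not tested.

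The liver isozymes of the same steps went the other way in level. Pklr, the liver pyruvate kinase, fell from 115, 130 and 16.0 RPKM to 3.13, 1.51, 10.96 and 7.07 RPKM (-3.50 ± 0.94, adjusted p = 0.0337), and Gckr, a regulatory gene of hepatic glucose phosphorylation, fell from 94.2, 112 and 22.8 RPKM to 0.804, 0.333, 8.40 and 7.79 RPKM (-4.08 ± 1.01, adjusted p = 0.0246). Slc2a2 measured 180, 173 and 107 RPKM in control liver and 1.25, 0.0110, 52.0 and 20.6 RPKM in hepatoma. Its groups did not overlap, but the hepatoma libraries spread widely and it did not pass (-4.39 ± 1.52, adjusted p = 0.0883). The higher hepatoma values of each of the 3 were those of libraries 3 and 4, where albumin was also higher, and without these libraries the 3 were called lower. The calls of Pklr and Gckr were lost without control library 1 or 2 or hepatoma library 1, and that of Pklr without hepatoma library 4.

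Ratios of RPKM within a library do not depend on its scaling, but the 1 added here to each value pulls the ratio in where a gene is near or below 1 RPKM, as Slc2a2 in hepatoma library 2 and Eno3 in controls. The log2 ratio of Slc2a1 + 1 to Slc2a2 + 1 was -5.55, -5.46 and -5.08 in control libraries 1 to 3 and 6.71, 7.45, 1.64 and 3.40 in hepatoma libraries 1 to 4. For Pkm and Pklr it was -4.57, -4.61 and 0.15 against 9.03, 9.84, 6.71 and 7.45. In both pairs each hepatoma library favoured the first gene, and the controls favoured the liver gene except control library 3 for Pkm, where both were about equal (17.8 and 16.0 RPKM). Pfkp, the platelet-type phosphofructokinase, gained on Pfkl, from between -3.03 and -1.97 to between -1.56 and -1.13. Eno1 stayed far above the muscle enolase Eno3, at 7.12 to 7.41 in controls and, lower, 6.40 to 6.97 in hepatoma (without the added 1, 357 to 474 times and 89.3 to 141 times its level).

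**Figure D2:**
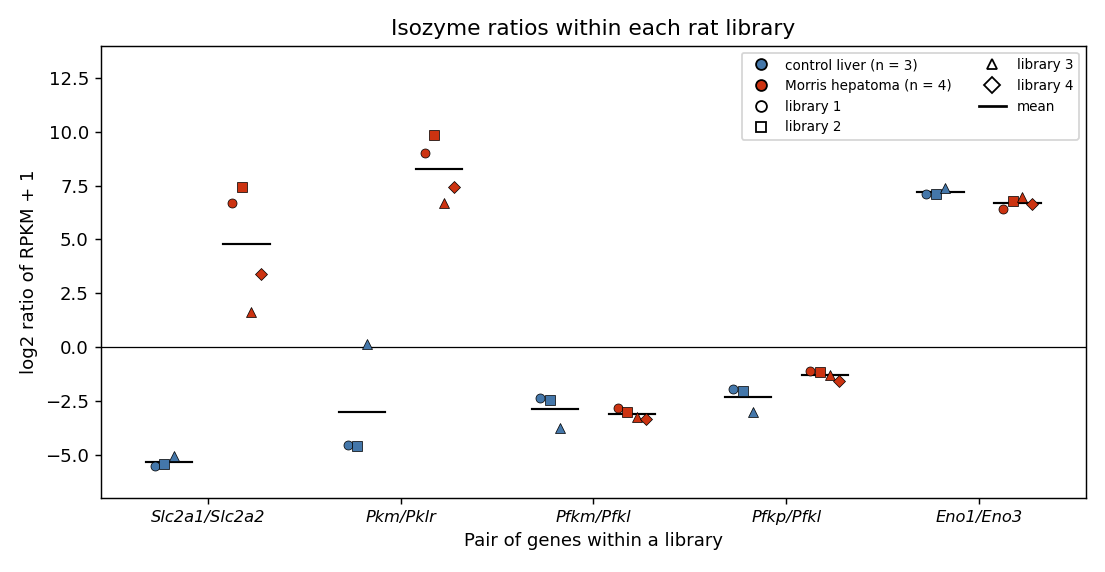
Log2 ratio of RPKM + 1 of 2 genes within each rat library, for control liver (blue, n = 3) and Morris hepatoma (red, n = 4), with library number as marker shape and lines at the group means. Slc2a1/Slc2a2 and Pkm/Pklr lie above 0 in each hepatoma library, whereas Eno1/Eno3 is lower in hepatoma (6.40 to 6.97) than in control liver (7.12 to 7.41). Pfkm/Pfkl overlaps between the groups with the added 1. Its plain ratio of RPKM does not (0.0234 to 0.0804 in controls, 0.0903 to 0.135 in hepatoma).

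Further genes of the pathway were also higher, some of them transporters and isozymes of the named steps and others enzymes of further steps. All 13 listed of 15 were called higher, as were 85.5% of all tested genes. They ran from 0.75 for Pgam2 to 4.38 for Eno2, the neuronal enolase (0.339 to 0.680 RPKM in controls, 24.1 to 37.0 RPKM in hepatoma). Pfkp rose by 4.31 on the log2 scale and the high-affinity glucose transporter Slc2a3 by 3.86 (0.475 RPKM or less in controls, 10.3 to 33.9 RPKM in hepatoma, highest in library 3). Their median of 2.42 stood above the 1.58 of all tested genes, in a list also chosen with earlier results known. With library medians set equal 7 of the 13 remained higher, Eno2, Pfkp and Slc2a3 among them, and Pgam2 was called lower, and quantile normalisation kept 9 higher and Pgam2 lower. Tpi1 (0.71, adjusted p = 0.137) and Pgk1 (0.36, adjusted p = 0.562) lost their calls with medians set equal and kept them with quantile normalisation.

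Regulators of flux split by isoform. Pfkfb3 (3.08 ± 0.18, adjusted p = 1.14e-06) and Pfkfb4 (1.60 ± 0.15), which make and remove the phosphofructokinase activator fructose 2,6-bisphosphate, were higher, and the liver form Pfkfb1 was lower (-0.81 ± 0.17, adjusted p = 0.00281). Among kinases that switch off pyruvate dehydrogenase, Pdk3 rose from 0.416, 0.419 and 0.825 RPKM to 37.0, 35.7, 24.3 and 31.6 RPKM (4.41 ± 0.19, adjusted p = 4.25e-07), Pdk1 rose by 0.82 ± 0.19, and Pdk2 fell (-1.59 ± 0.31, adjusted p = 0.00199). The phosphatase Pdp1 stayed below 1 RPKM and was not tested. Of 7 listed regulators 4 were therefore higher and 2 lower. Under either scaling Pfkfb3 and Pdk3 stayed higher, Pfkfb4 lost its call and Pdk1 was called lower.

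Genes that handle pyruvate and lactate were 3 higher and 3 lower. The lactate exporter Slc16a3 rose from 0.0840, 0.123 and 1.35 RPKM to 36.4, 38.7, 86.3 and 45.3 RPKM (5.12 ± 0.38, adjusted p = 8.8e-06), with Slc16a1 (0.95 ± 0.22) and the transporters' chaperone Bsg (1.04 ± 0.25). The pyruvate and lactate importer Slc16a7 (-2.45 ± 0.35) and both subunits of the mitochondrial pyruvate carrier, Mpc1 (-2.36 ± 0.41, adjusted p = 0.00138) and Mpc2 (-1.16 ± 0.27, adjusted p = 0.00642), were lower, and for these 3 the lower hepatoma values were those of libraries 1 and 2. Of the 5 pyruvate dehydrogenase genes Dlat (2.11), Pdhx (0.72), Pdha1 (0.61) and Dld (0.53) were higher and Pdhb was lower (-0.88 ± 0.21, adjusted p = 0.00793). Dlat exceeded the median of all tested genes, and the other 4 did not. Under either scaling Slc16a3 stayed higher, Slc16a7, Mpc1 and Mpc2 stayed lower, Slc16a1 and Bsg lost their calls, and Pdha1, Dld and Pdhx were called lower. Dlat lost its call with library medians set equal, and the Dld call was also lost without hepatoma library 1, 2 or 3 or control library 1 or 2, and that of Pdha1 without control library 2.

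All 5 listed of 6 pentose phosphate genes, of the pathway that turns glucose carbon to NADPH and ribose, were higher: Rpia (2.59), Taldo1 (2.05), Tkt (1.87), Pgls (1.38) and Rpe (1.09). The 4 listed transcription regulators of glycolytic genes were higher: Myc at 7.37 to 11.5 RPKM in control and 71.4 to 124 RPKM in hepatoma (3.42 ± 0.24), the hypoxia-inducible factor subunit Hif1a (2.50 ± 0.17), Max (1.87 ± 0.16) and Arnt (1.21 ± 0.18). All 4 splicing factors known to act on Pkm exons were higher: Hnrnpa1 (4.24 ± 0.21), Srsf3 (3.18 ± 0.20), Ptbp1 (3.11 ± 0.20) and Hnrnpa2b1 (1.87 ± 0.24). With library medians set equal, Myc, Hif1a, Hnrnpa1, Srsf3, Ptbp1 and Rpia stayed higher. Max, Arnt, Hnrnpa2b1 and the other 4 pentose phosphate genes lost the call, and Arnt, Pgls and Rpe turned lower in sign. Quantile normalisation kept the calls of Tkt (1.30, adjusted p = 0.00823), Taldo1 (1.16, adjusted p = 0.00182) and Hnrnpa2b1 (0.98, adjusted p = 0.0288). Max, Arnt, Pgls and Rpe lost theirs there too. With 85.5% of all tested genes called higher, full counts are common in this table.

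**Figure D3:**
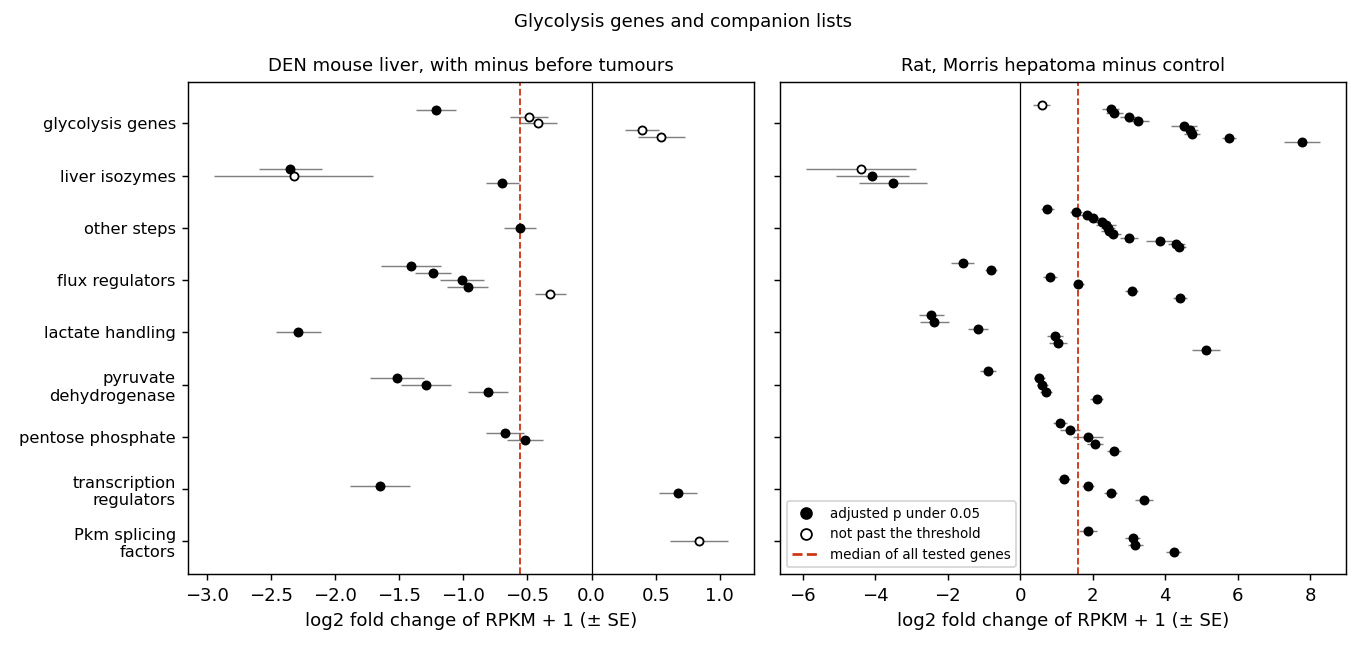
Log2 fold change of RPKM + 1 with its standard error for each tested gene of the glycolysis set and 8 companion lists, in DEN mouse liver (left) and Morris hepatoma (right), filled where the adjusted p is under 0.05, with the median of all tested genes as a dashed line (-0.56 and 1.58). In the hepatoma 9 of 10 glycolysis genes lie above the dashed line and the 3 liver genes (Slc2a2, Gckr and Pklr) below 0, and in the mouse panel 1 glycolysis gene, Eno1, is filled.

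Across the 7 libraries of the hepatoma table the genes whose log2(RPKM + 1) followed Slc2a1 most closely were Efhd2, Rgl2 and Eif5a2, each with Pearson r = 0.999 among 8232 genes. These libraries fall into 2 groups, and the r is set mostly by the group difference: after each group's mean was removed it was 0.90, 0.84 and 0.88. The nearest of the other glycolysis genes was Hk2, at rank 478 (r = 0.993, and 0.17 within groups). These values describe 7 libraries and carry no test.

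Regenerating liver was compared with the same controls to see how far growth of normal liver shares the changes. Of the 3 glycolysis genes listed, Hk1 was called higher, Slc2a1 did not pass, and Pfkm, at 0.982, 0.701, 0.734 and 0.985 RPKM, was under the minimum level for testing. Of all tested genes, 21.2% were called higher and 0.763% lower. Hk1 measured 2.00, 1.78, 1.48 and 2.00 RPKM in regenerating liver, each above the highest control of 1.06 RPKM, with a log2 fold change of 0.70 ± 0.14 (adjusted p = 0.0413). The call was lost with library medians set equal (0.08) and with quantile normalisation (0.02), and without control library 1 (adjusted p = 0.177) or 2 (0.157) or regenerating library 1 (0.103), 2 (0.105) or 4 (0.0898).

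Slc2a1 in regenerating liver measured 3.10, 3.78, 4.17 and 4.07 RPKM, all above the controls' 2.20 to 2.95 RPKM, with a log2 fold change of 0.38 ± 0.13 and an adjusted p of 0.266. It turned to -0.24 with library medians set equal and -0.27 with quantile normalisation. Against the table's median of 0.53, Hk1 lay above and Slc2a1 below, and groups that do not overlap were found in 93.0% of its tested genes. Of the companion lists 11 genes were listed and none was called: Bpgm (0.61), Pdk3 (0.54), Pdp2 (0.80), Bsg (0.63), Dlat (0.46), Pdhx (0.39), Max (0.32), Mlx (0.36), Ptbp1 (0.50) and Taldo1 (0.42) had adjusted p from 0.0713 to 0.484, and Pgam2 was under the minimum level. Both scalings gave Pdk3, Bpgm, Taldo1, Ptbp1, Dlat, Pdhx, Max and Mlx a negative sign. Stellate markers in this table gave 1 higher of 3 listed (Col1a1, 0.471 to 2.78 against 5.68 to 11.5 RPKM) and endothelial markers 1 of 2 (Emcn, 0.794 to 0.959 against 3.12 to 6.92 RPKM), both calls lost under either scaling and without control library 1 or 2, and that of Col1a1 also without regenerating library 1 or 2. Their part in the Hk1 value was not tested.

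Set directly against regenerating liver, the hepatoma was higher in all 3 genes listed in both tables, where 86.1% of 1696 tested genes were called, 81.5% higher and 4.66% lower, and the median log2 fold change was 1.45. Slc2a1 was at 165 to 234 RPKM in hepatoma and 3.10 to 4.17 RPKM in regenerating liver (5.38 ± 0.15, adjusted p = 9.0e-12). Hk1 was at 34.9 to 56.0 against 1.48 to 2.00 RPKM (4.03 ± 0.17, adjusted p = 3.9e-10), and Pfkm at 7.54 to 17.9 against 0.701 to 0.985 RPKM (2.72 ± 0.20, adjusted p = 5.3e-08). No library of 1 group reached the other in these genes, as in 90.3% of tested genes, and the 3 calls held with library medians set equal (3.83, 2.47 and 1.16). Among companions, Pdk3 (3.87 ± 0.16), Ptbp1 (2.60 ± 0.16), Bpgm (1.81 ± 0.16), Taldo1 (1.64 ± 0.16), Dlat (1.64 ± 0.15), Max (1.55 ± 0.12) and Pgam2 (1.09 ± 0.14) were also higher, of which Pdk3 and Ptbp1 kept the call under both scalings and the other 5 did not, and Bsg (0.42, adjusted p = 0.608) and Pdhx (0.33, adjusted p = 0.411) did not pass. Pdhx was called lower with library medians set equal (-1.23, adjusted p = 3.6e-06) and with quantile normalisation (-1.22, adjusted p = 2.9e-06), and Bsg with medians set equal (-1.14, adjusted p = 0.000996) but not with quantile normalisation (-0.58). The 3 stellate and fibroblast markers listed in both tables were higher in hepatoma, Col1a1 (4.53), Col1a2 (3.40) and Col3a1 (2.06), their sum being 55.1 to 73.6 RPKM in regenerating liver and 356 to 953 RPKM in hepatoma. The endothelial marker Cdh5 was higher too (4.22 to 9.79 against 22.7 to 42.9 RPKM, 1.93). Col1a1 and Col1a2 kept their calls under both scalings, Col3a1 and Cdh5 lost theirs, and their part in the 3 glycolysis values was not tested.

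In DEN mouse liver 5 glycolysis genes were listed, and 1 of them, Eno1, passed the test, as lower in livers with tumours. The background was 17.9% of tested genes called higher and 49.5% lower. Eno1 (13806) measured 191, 168 and 170 RPKM in livers before tumours and 63.8, 82.8 and 80.6 RPKM in livers with tumours (log2 fold change -1.22 ± 0.16, adjusted p = 0.00206). The highest library with tumours lay well below the lowest without them. The call was lost with quantile normalisation (-0.43, adjusted p = 0.235) and held without any single library.

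Hk1 and Ldha had higher values with tumours without passing the test. Hk1 (15275) measured 0.963, 0.935 and 0.967 RPKM before and 1.47, 2.00 and 1.29 RPKM with tumours (0.39 ± 0.13, adjusted p = 0.106). Ldha (16828) measured 237, 236 and 319 RPKM before and 337, 378 and 436 RPKM with tumours (0.54 ± 0.18, adjusted p = 0.108). Both were called higher with library medians set equal (0.79 and 0.94, adjusted p = 0.00455 and 0.0248) and with quantile normalisation (0.56 and 1.33).

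Pfkm and Gapdh had lower values with tumours, also short of the threshold. Pfkm (18642) measured 5.08, 4.16 and 4.21 RPKM before and 2.60, 2.60 and 3.59 RPKM with tumours (-0.49 ± 0.15, adjusted p = 0.0768), and its difference was -0.09 with library medians set equal and -0.22 with quantile normalisation. Gapdh (14433) measured 1226, 1316 and 1283 RPKM before and 1021, 856 and 989 RPKM with tumours (-0.42 ± 0.15, adjusted p = 0.142). With medians set equal it was at -0.02, and quantile normalisation turned it higher (0.72, adjusted p = 0.0135). No library of one age overlapped the other in any of the 5 genes, as in 100% of tested genes. Their median log2 fold change of -0.42 was near the -0.56 of the table.

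**Figure D4:**
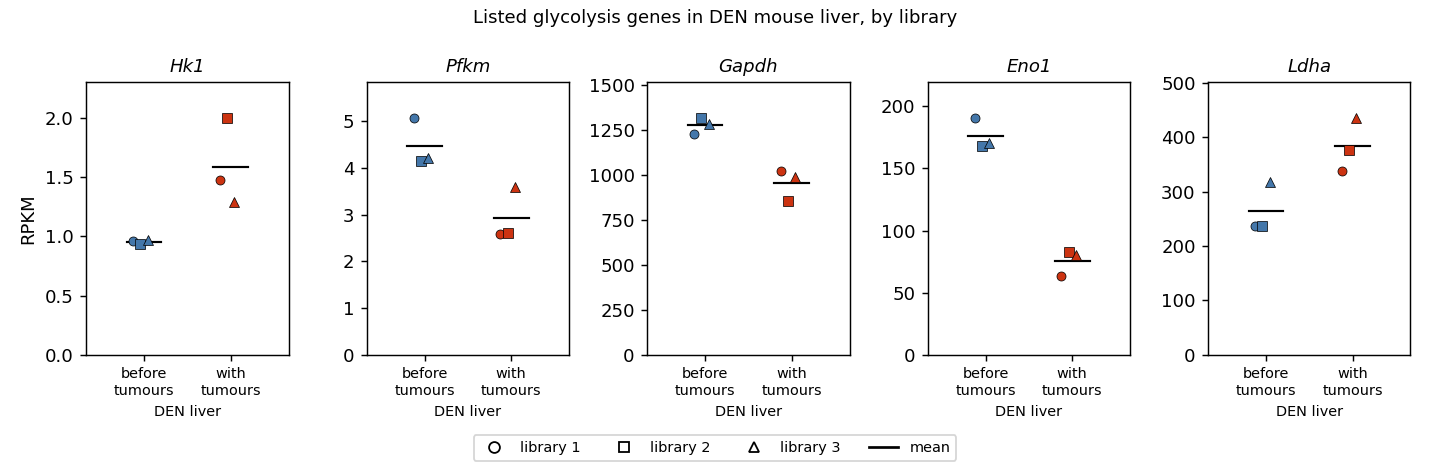
RPKM of the 5 listed glycolysis genes in each DEN mouse library before tumours (blue, n = 3) and with tumours (red, n = 3), on linear axes from 0, with library number as marker shape and lines at the means. Relative to its own axis Eno1 shows the widest gap (168 to 191 against 63.8 to 82.8 RPKM), and Hk1 and Ldha lie higher, and Pfkm and Gapdh lower, in livers with tumours.

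Of the liver genes Pklr, Gckr and Slc2a2, 2 of 3 were called lower in livers with tumours. Pklr fell from 200, 143 and 154 RPKM to 21.9, 33.7 and 41.8 RPKM (-2.35 ± 0.24, adjusted p = 0.000871) and Gckr from 45.1, 49.7 and 46.8 RPKM to 29.2, 30.5 and 26.7 RPKM (-0.70 ± 0.13, adjusted p = 0.0102). Slc2a2 measured 70.9, 71.1 and 71.0 RPKM before and 3.96, 29.1 and 18.9 RPKM with tumours (-2.32 ± 0.62, adjusted p = 0.0644). Library 1 with tumours had the lowest value of Slc2a2 and Pklr. Under either scaling Pklr kept its call and Gckr lost it, and the Gckr call was also lost without library 2 before tumours. The log2 ratio of Eno1 + 1 to Eno3 + 1 went from 5.81 to 5.95 before to 5.16 to 5.26 with tumours.

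Genes around pyruvate were mostly lower in the same livers. Of all tested genes 49.5% were called lower there, with a median log2 fold change of -0.56. The pyruvate dehydrogenase genes Pdhb (-1.52), Dlat (-1.29) and Pdha1 (-0.81) were lower, 3 of 3 listed, as were 4 of the 5 tested flux regulators, among them Pdk1 (-1.41), Pdp2 (-1.24) and Pdk4 (-1.01). Ldhd, the mitochondrial D-lactate dehydrogenase, fell from 66.3, 57.1 and 47.4 RPKM to 12.0, 11.7 and 8.86 RPKM (-2.29 ± 0.17, adjusted p = 0.000293). The glucose-sensing transcription factor Mlxipl, which drives Pklr in hepatocytes, was lower (-1.65 ± 0.24, adjusted p = 0.00329) and Myc was higher, from 4.62, 3.33 and 3.59 RPKM to 6.26, 7.48 and 6.31 RPKM (0.67 ± 0.15, adjusted p = 0.0206). Eno3 (-0.56), Pgls (-0.52) and Rpe (-0.67) were lower, near the median of all tested genes. The splicing factor Hnrnpa1 (0.84, adjusted p = 0.0538) and Pfkfb2 (-0.32, adjusted p = 0.172) did not pass. Of these, Pdhb, Dlat, Pdk1, Pdp2, Ldhd, Mlxipl and Myc kept their calls under both scalings, while Pdha1, Eno3, Pgls and Rpe lost them, Pdk4 and Pdk2 lost them under 1 scaling each, and Hnrnpa1 was called higher. The Myc call was lost without library 2 or 3 before tumours or library 3 with tumours, that of Pdha1 without library 1 before tumours, that of Rpe without library 1 or 2 before tumours or library 1 with them, that of Eno3 without any 1 library before tumours or library 1 with them, and that of Pgls without any 1 library.

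Cell type markers moved in the mouse livers too. The sum of 6 listed hepatocyte markers went from between 59900 and 73502 RPKM before tumours to between 134955 and 147550 RPKM with them, with Alb and Apoa1 called higher and Apoa2 and Cyp2e1 lower. Endothelial markers were 3 higher and 1 lower of 5 listed (summed 21.0 to 28.3 against 26.1 to 43.1 RPKM), macrophage markers 2 higher and 1 lower of 4 tested (91.6 to 112 against 83.8 to 115 RPKM), and Acta2 (2.76 to 5.20 against 11.04 to 19.5 RPKM) and Sox9 (2.38 to 4.36 against 7.99 to 10.9 RPKM) were higher. Alas2 was lower (67.8 to 79.9 against 6.73 to 15.0 RPKM), no T cell marker was listed, and no listed marker was without reads. Under both scalings Emcn, Pecam1, Cdh5, Cd68, Lyz2, Acta2, Sox9 and Alas2 kept their calls, Tie1 and Clec4f lost theirs, and Apoa2 lost its call with medians set equal (adjusted p = 0.197). Alb kept its call with medians set equal (2.16, adjusted p = 0.00122). Quantile normalisation gave Alb the same level in both groups, as it must for a gene of the same rank in each library. Its call could not hold there, which does not bear on its rise. The hepatocyte marker Serpina1a (0.56, adjusted p = 0.0991) and S100a8, the 1 listed of 6 neutrophil markers (1.19 to 2.66 against 3.47 to 4.18 RPKM, 0.68, adjusted p = 0.0664), did not pass but were called higher under both scalings. Leaving out single libraries ended calls of Pecam1, Cdh5, Tie1, Cd68, Clec4f, Lyz2, Apoa2 and Cyp2e1 in at least 1 case each. Their part in the glycolysis values was not tested.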

How the data were processed

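The 3 tables hold whole-tissue RNA sequencing of 17 libraries of flash-frozen liver, extracted with Trizol, RNeasy or both. The aligner, genome build, annotation and read counting are not given in the sources used here, so depth is unknown and no counting interval is given. The authors deposited per-library values whose headers name no unit. They were read as RPKM because the lowest values fell with transcript length (slope -0.92 on log2 scales, r = -0.68, over 131 mouse genes, a correlation across genes). A value of 0.001 stands for no reads. A log2 ratio and a p-value stand beside them, per the file headers. In all 4649, 9082 and 2093 genes the deposited p-value, headed as Holm-corrected, matched within 1% what an unadjusted equal-variance comparison of linear RPKM gives, and each lay under 0.05. The deposited log2 ratio matched the ratio of group means within 0.01 in all of them. The hepatoma table has 1 line that names no gene, which was dropped.

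Each whole table was fitted in R 4.3.3 with limma 3.58.1, using its trend and robust options and two-sided tests on log2(RPKM + 1). A gene entered when it reached 1 RPKM in no fewer libraries than the smaller group holds. Because the tables are preselected, the Benjamini-Hochberg adjustment counted all protein-coding genes, of which the mouse GENCODE M21 annotation has 21951 and the rat RefSeq GRCr8 annotation 23154. Hepatoma and regenerating liver were compared in 1 fit with the controls over the 1752 genes listed in both rat tables, whose control values are identical. An exact permutation test of 1 gene could not go below 0.1 (3 against 3) or 0.0571 (3 against 4).

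The procedure was tested on simulated data, selected in the same way. Where no gene was changed, 0 genes were called in each design, against 725, 707 and 747 (mouse, hepatoma, regenerating) when adjusting over listed genes. With 200 genes changed, 162, 122 and 198 were called, 19, 11 and 20 of them falsely, the share found was 58%, 42% and 80% for 2-fold changes, rising to 85%, 69% and 98% for those of 4-fold. More of these calls were false than the threshold allows, so adjusted p-values may understate the error. Changes were placed only in genes with higher reference levels. Slc2a1, Hk1, Pfkm and Hk2, at 2.67, 0.739, 0.528 and 0.289 RPKM on average in rat control liver, lay below these levels. So did Pkm by its mean on the log2 scale, with 3.86, 4.36 and 17.8 RPKM in rat control liver. Hk1 and Pfkm in mouse livers before tumours, at 0.955 and 4.48 RPKM on average, were below them too. The shares found therefore do not apply to them. The 200 changed genes were also far fewer than the genes called in the hepatoma and mouse comparisons.

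Libraries were grouped by the labels' titles and characteristics. All 10 glycolysis genes were named wherever listed. Of each companion list, each listed gene was named where at most 5 were listed, otherwise the 3 called genes with the largest change in each direction, and further ones where their call changed, chosen after their values were seen. Some genes of the companion lists, and ratios with them, are not reported here. The genes and lists were chosen with earlier results of these data known. Alternatives were another pseudocount (0.1), filter (none or 5 RPKM), scaling (equal medians, quantile), adjustment, limma setting, replicate block, a 3-group fit and leaving out libraries. Tables and figures were made in Python 3.11.15 (pandas 2.3.3, numpy 2.4.6, matplotlib 3.10.9, scipy 1.17.1).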

Additional observations from a re-analysis of the deposited data

Results flagged for a closer look

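Pfkm, Gapdh and Eno1 had log2 fold changes of opposite sign in the 2 tumour models, with each library with tumours below each library before tumours in DEN mouse liver and each hepatoma library above each control in rats. The log2 fold change of Pfkm was -0.49 in DEN liver and 3.00 in Morris hepatoma, that of Gapdh -0.42 and 2.59, and that of Eno1 -1.22 and 2.50. The difference between the models was not tested, since the values come from tables of different species that were normalised separately. In DEN liver Eno1 alone of the 3 passed the test. Pfkm (adjusted p = 0.0768) and Gapdh (adjusted p = 0.142) did not, they were at -0.09 and -0.02 there with library medians set equal, and quantile normalisation turned Gapdh to 0.72. Groups that do not overlap were also found in 3683 of the 3684 tested genes in DEN liver and in 98.6% of those in the hepatoma. No glycolysis gene in the hepatoma or regenerating groups, which have 4 libraries each, had a single library far from the rest by Dixon's criterion. The groups of 3 libraries, with control library 3 among them, were not put to it.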

How the results depend on the processing

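The 9 higher calls in Morris hepatoma held under each alternative in which the gene was tested, and so did the 3 calls against regenerating liver. The 3-group fit covers the 3 glycolysis genes listed in both rat tables alone, and called 3. Tables list preselected genes, mostly higher in the hepatoma and lower in DEN liver, so a scaling based on the listed genes makes the numbers higher and lower more equal by its construction. The depth is unknown, and how far it limits genes under 1 RPKM was not tested. The cause of the other shifts was not tested.

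With library medians set equal, 2 glycolysis genes were called higher in DEN liver, 1 lower in Morris hepatoma (Ldha, -1.07) and 0 higher in regenerating liver, where Slc2a1 turned to -0.24. Over all genes this gave 614 lower (main 1823) in DEN liver, 2029 higher and 2389 lower (7042 and 719) in the hepatoma, 19 and 59 (361 and 13) in regenerating liver, and 450 and 551 (1382 and 79) for hepatoma against regenerating liver. Quantile normalisation called 3 glycolysis genes higher and 0 lower in DEN liver (Gapdh 0.72) and 0 higher in regenerating liver (Slc2a1 -0.27), gave -0.12 for Ldha in the hepatoma, and gave 589 lower in DEN liver, 2514 and 1878 in the hepatoma, 20 and 46 in regenerating liver, and 514 and 460 against regenerating liver.

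Adjustment over tested genes alone called 2 glycolysis genes higher and 3 lower in DEN liver and 2 higher in regenerating liver, with 1561 higher and 65 lower over all genes there. A filter of 5 RPKM, which tests fewer genes, gave 289 higher and 1072 lower in DEN liver, and 149 and 4 in regenerating liver with 0 glycolysis genes higher. Without a filter 22 were lower there. The 3-group fit over shared genes gave 1553 higher and 68 lower in the hepatoma, and 3 lower with 0 glycolysis genes higher in regenerating liver.

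With 0.1 in place of 1 added, the difference between groups in log2 ratio turned from -0.25 to 0.81 for Pfkm/Pfkl, and moved from 1.06 to 1.68 for Pfkp/Pfkl, from -0.51 to -1.60 for Eno1/Eno3 in the hepatoma and from -0.65 to -0.34 in DEN liver.

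Replicate numbers did not pair the libraries: same-numbered residuals correlated at -0.16 to -0.02 in DEN liver, -0.22 to -0.15 in the hepatoma, -0.32 to 0.15 in regenerating liver and -0.15 to 0.09 between the last pair of groups. The replicate block left 242 lower calls in the hepatoma, and 23 higher and 2 lower in regenerating liver, where 0 glycolysis genes were higher (Hk1 0.67, adjusted p = 0.244).

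Leaving out 1 library at a time gave 409 to 631 higher and 922 to 1962 lower calls in DEN liver, 6720 to 6967 and 346 to 838 in the hepatoma, 20 to 338 and 1 to 15 in regenerating liver, and 1323 to 1388 and 66 to 94 against regenerating liver. Glycolysis genes called numbered 9 to 10 in the hepatoma and 0 to 1 in regenerating liver. With 1 added to each value, differences in log2 ratio ran from 9.28 to 11.22 for Slc2a1/Slc2a2, 10.47 to 12.85 for Pkm/Pklr and 0.72 to 1.25 for Pfkp/Pfkl. On the same scale they ran from -0.69 to -0.0028 for Pfkm/Pfkl, -0.60 to -0.41 for Eno1/Eno3 in the hepatoma, and -0.68 to -0.61 in DEN liver.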
